A study of Mus musculus with 10 samples.

Results

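The genes described here make, sense and export cholesterol and make fatty acids, in mouse regulatory T cells (Treg cells), the CD4 T cells that restrain immune responses. They were taken by name. Of 39 listed symbols, 37 equalled a row name of the deposited table, which holds 13252 genes. All 37 averaged 10 or more normalized counts across the 10 libraries, the minimum set for testing. Fads2 was not analysed here. The table lists methylsterol monooxygenase under its older symbol, Sc4mol, so Msmo1 did not match by the rule. Its values are given below for completeness and it is in none of the counts.

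RNA-seq libraries of sorted cells were compared in 2 groups of 5. Helios+ libraries came from Treg cells gated as CD4+RFP+GFP+, and Helios− libraries from Treg cells gated as CD4+RFP+GFP−. Both gates share CD4 and RFP and differ in GFP, which the labels tie to Helios, the zinc finger transcription factor encoded by Ikzf2. What drives RFP, and the strain, sex and age of the mice, are not stated in the labels. The series' design text instead names wild-type and knockout cells, so the groups below are 2 sorted populations and no difference is called an effect of losing Helios. The labels do not tie each of the 5 samples to its own mouse, and the p-values therefore reflect only how these samples vary, in part perhaps for technical reasons. Depth was 4872348 to 6948692 recovered reads a library. Ikzf2 had 9667 to 10906 normalized counts in Helios+ libraries, against 418 to 572 in Helios− libraries, and Foxp3, the factor that defines Treg cells, 3284 to 3764 in Helios+ against 3296 to 3833 in Helios− libraries. Markers of other cells were present at lower levels. The summed level of 12 macrophage and monocyte markers ranged from 341 to 603 normalized counts in Helios+ and from 234 to 371 in Helios− libraries, and that of 7 B cell markers from 1499 to 2124 in Helios+ and from 1717 to 2412 in Helios− libraries. In bulk samples such as these, fewer cells of a type and less RNA per cell cannot be told apart.

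Cells build cholesterol from acetyl-CoA through mevalonate, squalene and lanosterol. The pathway is set by SREBP2, a membrane-bound transcription factor encoded by Srebf2. When sterols in the endoplasmic reticulum run low, the escort Scap carries it to the Golgi, where it is cut free to enter the nucleus. Insig proteins hold Scap back when sterols are plentiful. SREBP1, from Srebf1, mainly drives fatty acid synthesis, and the oxysterol-sensing receptors LXR alpha and LXR beta (Nr1h3 and Nr1h2) switch on cholesterol exporters. T cells that are activated and divide raise these pathways to build membrane.

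In Helios+ cells 3 of the 37 genes were higher and 4 were lower than in Helios− cells. Scd2, which desaturates fatty acids, Stard4, a carrier of cholesterol, and Ebp, a late enzyme of cholesterol synthesis, were higher. Mvd and Lss, an early and a middle enzyme of cholesterol synthesis, Srebf2 and Acss2, which turns acetate into acetyl-CoA, were lower. The changes lay between −0.76 and 0.97 on the log2 scale, and 30 genes were not called. A gene was called where limma gave a Benjamini-Hochberg adjusted p below 0.05, fitted to log2(normalized count + 1) of all 10718 genes tested, and a change is Helios+ minus Helios− on that scale. The 7 calls are 18.9% of the genes, where 24.8% of all genes tested were called, 14.1% higher and 10.7% lower. The share called was therefore not above that of all genes tested. The groups did not overlap for 4 of the 37 genes, or 10.8%, beside 19.5% of all genes tested. The median change was −0.03, close to the median of −0.02 over all genes tested. A limma fit that also blocked on the replicate number called 11 of the 37, 4 higher and 7 lower, with 37.3% of all genes tested called in that fit. The 7 calls were among these 11, and the 4 added were Sqle, Cyp51 and Acaca, lower, and Fasn, higher.

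**Figure D1:**
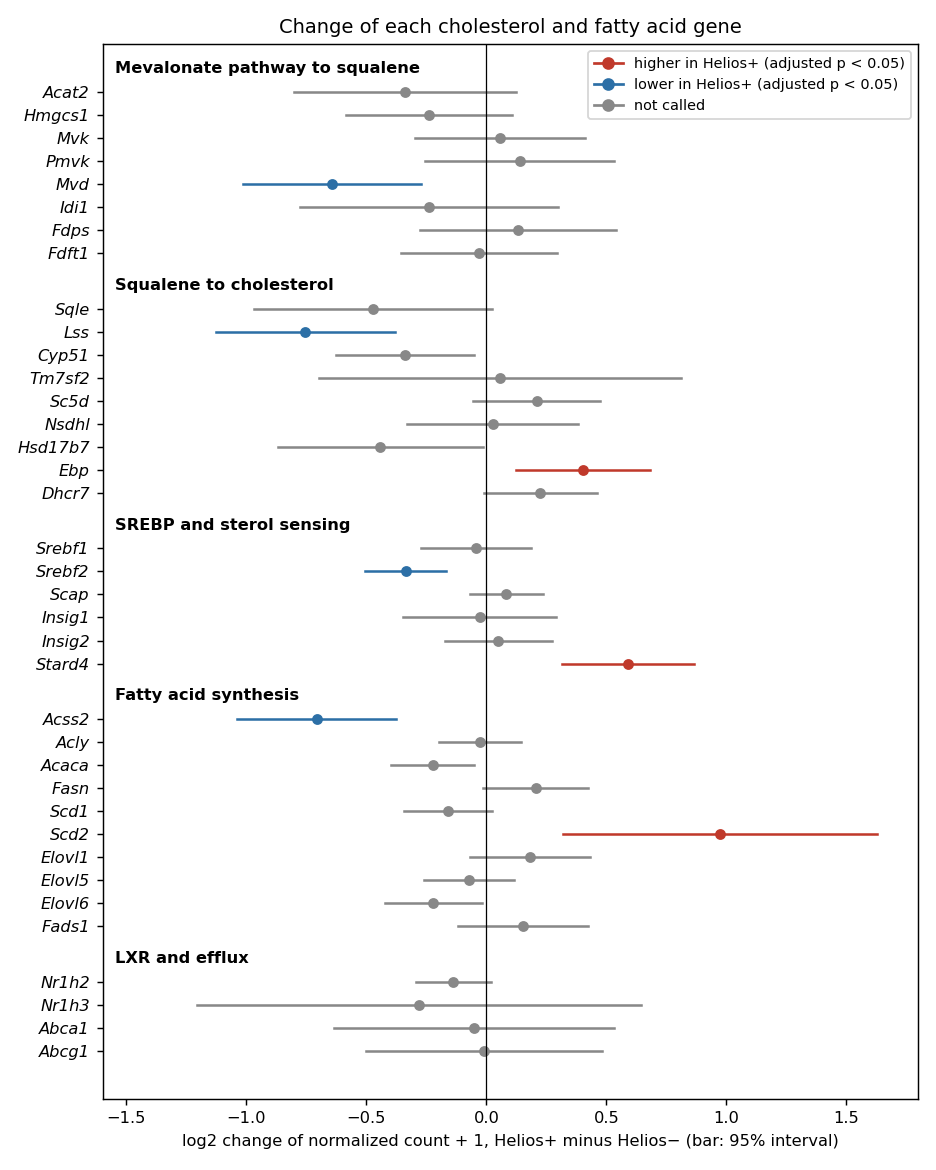
Change of each of the 37 genes, as log2 change of normalized count + 1 in Helios+ minus Helios− cells (point) with its 95% interval from limma (bar), grouped by role. Red marks the 3 genes called higher, blue the 4 called lower and grey the 30 not called. Most grey intervals span 0, and Nr1h3 and Tm7sf2, the least abundant genes, have the widest.

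Stretches of 250 bases before the annotated start are shown for Ebp, Mvd, Lss and Srebf2, 4 of the called genes, and for Hmgcs1, the one member with a match to the sterol regulatory element searched. They are from RefSeq, build GRCm38.p6, and are written 5′ to 3′ on the strand of the gene, with matches in capitals. The stretches for Lss and Srebf2 end earlier, at 233 and 162 bases, where the GENCODE annotation already places the gene.
Ebp, chrX:8193513-8193762, minus strand: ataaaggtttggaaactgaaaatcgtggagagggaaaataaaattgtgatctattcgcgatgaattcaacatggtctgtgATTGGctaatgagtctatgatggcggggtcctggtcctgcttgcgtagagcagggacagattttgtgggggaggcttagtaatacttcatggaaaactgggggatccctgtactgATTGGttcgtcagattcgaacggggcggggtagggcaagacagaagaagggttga
Mvd, chr8:122443423-122443672, minus strand: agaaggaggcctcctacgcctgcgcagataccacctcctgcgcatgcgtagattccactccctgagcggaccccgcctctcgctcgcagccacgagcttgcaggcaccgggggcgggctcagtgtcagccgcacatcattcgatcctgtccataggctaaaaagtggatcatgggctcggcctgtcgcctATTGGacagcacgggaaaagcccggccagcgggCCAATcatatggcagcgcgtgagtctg
Lss, chr10:76531355-76531587, plus strand: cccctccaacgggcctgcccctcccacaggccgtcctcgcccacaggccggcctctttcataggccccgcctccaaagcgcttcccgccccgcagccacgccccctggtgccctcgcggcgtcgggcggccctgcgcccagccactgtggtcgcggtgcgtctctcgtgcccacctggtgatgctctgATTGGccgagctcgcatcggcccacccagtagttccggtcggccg
Srebf2, chr15:82147019-82147180, plus strand: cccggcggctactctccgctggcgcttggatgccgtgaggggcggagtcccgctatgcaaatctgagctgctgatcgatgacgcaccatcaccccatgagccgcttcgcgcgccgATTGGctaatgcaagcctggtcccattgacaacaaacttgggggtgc
Hmgcs1, chr13:119690101-119690350, plus strand: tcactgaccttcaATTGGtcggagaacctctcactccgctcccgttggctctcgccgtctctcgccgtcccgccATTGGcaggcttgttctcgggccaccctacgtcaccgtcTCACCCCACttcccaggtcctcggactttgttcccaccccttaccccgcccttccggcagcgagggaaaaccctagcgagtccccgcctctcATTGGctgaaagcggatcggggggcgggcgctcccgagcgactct
Capitals mark CCAAT or its reverse complement ATTGG, the box bound by NF-Y, a factor that works beside SREBPs, and in Hmgcs1 also TCACNCCAC, a form of the sterol regulatory element. Both motifs and a repeat of AGGTCA spaced by any 4 bases, an LXR element, were searched on both strands. No matches overlapped in the sequences shown. Of the 37 genes, 29 had an entry. The NF-Y box was found before 21 of these 29 genes, 72.4%, and before 37.5% of the 27025 genes in the table, where a gene can have several starts. Counted by start, the shares were 56.4% of 39 and 33.9% of 32851. The TCACNCCAC form was found before 1 of the 29 and 1.23% of all genes, and the LXR element before none of the 29 and 0.015% of all genes. A match is a description of the letters and not a site of binding. Windows were placed by the RefSeq start, and for 5 of the 21 genes, Acss2, Cyp51, Dhcr7, Idi1 and Tm7sf2, every box lies inside the gene as GENCODE places it. Of the 3 higher genes Ebp alone had an entry, so the higher and lower genes were not compared for the box.

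The first steps of the mevalonate pathway gave 1 call among 8 genes. Mvd, mevalonate diphosphate decarboxylase, which makes isopentenyl diphosphate, was lower in Helios+ cells (chromosome 8, 122433601 to 122443422, minus strand). Mvd had 33.5, 36.0, 33.3, 41.8 and 29.0 normalized counts in Helios+ libraries 1 to 5, against 48.0, 41.3, 64.4, 69.3 and 53.5 in Helios− libraries 1 to 5. The groups overlapped only in that Helios+ library 4 lay just above Helios− library 2, and every Helios+ library was below the Helios− library of its number. The change was −0.64 ± 0.17 (SE; limma adjusted p = 0.0127), or 1.59-fold higher in Helios− by means. The enzymes around it were not called. Hmgcs1, HMG-CoA synthase, which commits acetyl-CoA to the pathway, had 156, 114, 156, 158 and 116 normalized counts in Helios+ libraries 1 to 5, against 118, 158, 208, 210.3 and 144 in Helios− libraries 1 to 5. Its groups overlapped and its change was −0.24 with a 95% interval of −0.59 to 0.11. Fdft1, squalene synthase, which makes the first compound committed to sterols, had 168, 138, 169, 182 and 110.1 normalized counts in Helios+ libraries 1 to 5, against 117, 151, 194, 171 and 148 in Helios− libraries 1 to 5. Here too the groups overlapped, with a change of −0.03 with a 95% interval of −0.35 to 0.29, and 18.3% of its exon bases are shared with Ctsb on the other strand.

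The remaining early enzymes averaged between 31.7 and 74.7 normalized counts over the 10 libraries, and none was called. Acat2, which joins acetyl-CoA units and has a near-copy, Acat3, listed at 0 to 6.95 normalized counts, had a change of −0.34 with a 95% interval of −0.80 to 0.12. Idi1, which isomerizes isopentenyl diphosphate, had −0.24 with a 95% interval of −0.78 to 0.30. The kinases Mvk and Pmvk, which phosphorylate mevalonate in turn, had 0.06 and 0.14. Fdps, which makes farnesyl diphosphate for sterols and for protein prenylation, had 0.13, and 26.7% of its exon bases are shared with a predicted gene on its own strand. Limma gave these 5 genes adjusted p-values between 0.286 and 0.848. The 8 genes had a median change of −0.14, and 5 of the 8 changes were below 0.

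Between squalene and cholesterol 1 of 9 genes was higher and 1 lower. Lss, lanosterol synthase, which closes the sterol rings, showed the largest decrease of the 37 (chromosome 10, 76531588 to 76557138, plus strand). Lss had 37.7, 32.6, 43.6, 33.0 and 23.2 normalized counts in Helios+ libraries 1 to 5, against 51.5, 63.5, 62.3, 58.1 and 50.6 in Helios− libraries 1 to 5. The groups did not overlap. Its change was −0.76 ± 0.18 (SE; limma adjusted p = 0.00461), and its mean was 1.68 times as high in Helios− cells. Ebp, the sterol isomerase that acts near the end of the pathway, moved the other way (chromosome X, 8185329 to 8193512, minus strand). Ebp had 162, 166, 209, 185 and 187 normalized counts in Helios+ libraries 1 to 5, against 108, 139.7, 181, 119 and 147 in Helios− libraries 1 to 5. Each Helios+ library was above the Helios− library of the same number, although Helios− library 3 lay above 2 of the Helios+ libraries. The change was 0.40 ± 0.13 (SE; limma adjusted p = 0.035), and the call was lost when any 1 of Helios+ libraries 3, 4 and 5 and Helios− libraries 1, 2 and 4 was left out (adjusted p up to 0.0921). Quantile normalization also lost it (limma adjusted p = 0.0577).

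Around Lss, 3 enzymes had lower means in Helios+ cells without a call in the fit by group alone. Sqle, squalene epoxidase, had 40.9, 38.5, 43.6, 60.2 and 23.2 normalized counts in Helios+ libraries 1 to 5, against 37.5, 55.0, 62.3, 74.4 and 53.5 in Helios− libraries 1 to 5. It was lower in 4 of 5 pairs, with a change of −0.47 ± 0.23 (SE; limma adjusted p = 0.162), and the block gave an adjusted p of 0.0408. Cyp51, which removes a methyl group from lanosterol, had 95.4, 82.8, 118, 109 and 91.6 normalized counts in Helios+ libraries 1 to 5, against 121, 109, 152, 145 and 105 in Helios− libraries 1 to 5. It was lower in all 5 pairs, with a change of −0.34 ± 0.13 (SE; limma adjusted p = 0.0811) and, with the block, an adjusted p of 0.0124. Hsd17b7, a ketoreductase of the same stretch, was also lower in 5 of 5 pairs at a mean of 19.4 ± 4.06 among Helios+ and 26.4 ± 1.95 among Helios− libraries, in normalized counts (SD, n = 5 each), a change of −0.44 ± 0.20 (SE; limma adjusted p = 0.128). Quantile normalization and cyclic loess called it (limma adjusted p = 0.0164 and 0.033).

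Sc5d and Dhcr7, which act late, had higher means in Helios+ cells. Sc5d, which introduces a double bond close to the end of the pathway, had 209, 204, 238, 170.0 and 166 normalized counts in Helios+ libraries 1 to 5, against 182, 187, 196, 144 and 144 in Helios− libraries 1 to 5. It was higher in 5 of 5 pairs, with a change of 0.21 ± 0.12 (SE; limma adjusted p = 0.25). Dhcr7, which carries out the final reduction to cholesterol, was also higher in 5 of 5 pairs, at a mean of 104 ± 4.79 among Helios+ and 89.2 ± 10.4 among Helios− libraries, in normalized counts (SD, n = 5 each), a change of 0.22 ± 0.11 (SE; limma adjusted p = 0.158). Neither was called in either fit. Nsdhl, which removes methyl groups as part of a complex, had a change of 0.03 with a 95% interval of −0.33 to 0.38. Tm7sf2, a sterol reductase, had a mean of 14.3 normalized counts and an interval of −0.70 to 0.81, and its reads were too few to narrow that range. The row listed as Sc4mol, which acts with Nsdhl and Hsd17b7, had a mean of 76.5 ± 19.3 among Helios+ and 87.6 ± 30.3 among Helios− libraries, in normalized counts, with a change of −0.16 ± 0.22 (SE; limma adjusted p = 0.645). Over the whole pathway of 17 measured enzymes, 8 changes were above 0 and 9 below. The 2 lower calls stood at an early and a middle step and the 1 higher call at a late step.

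**Figure D2:**
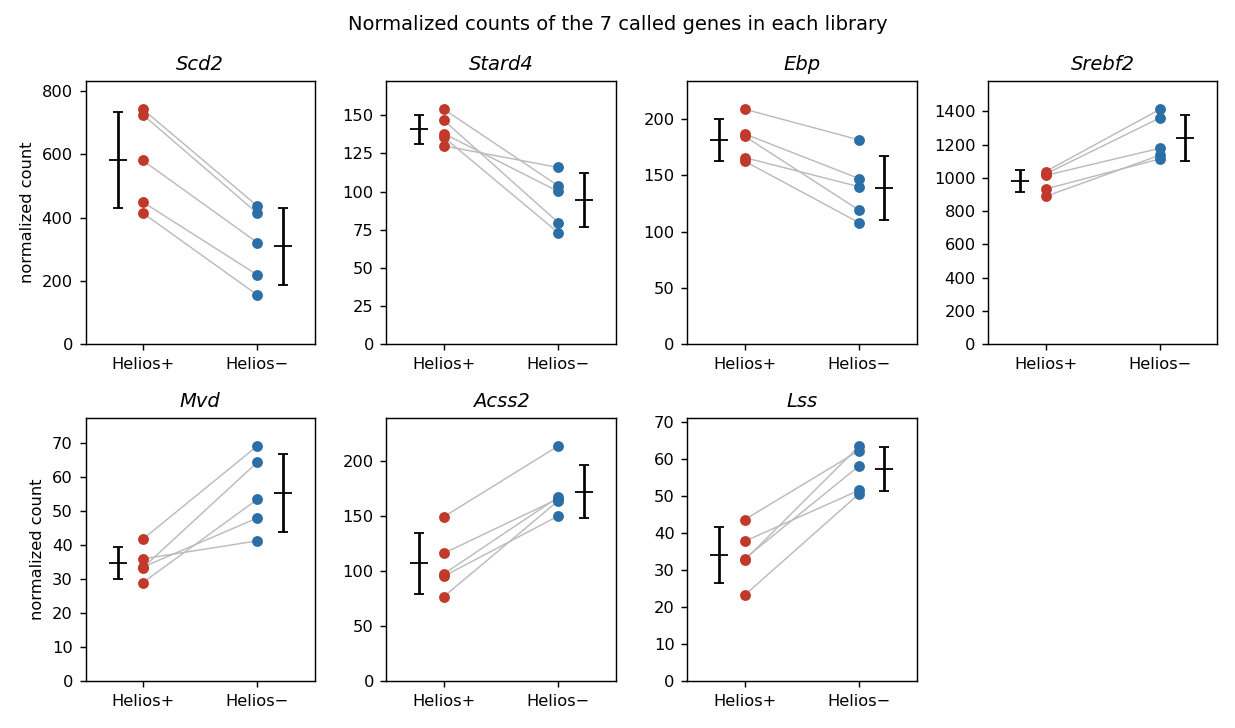
Normalized counts of the 7 called genes in the 5 Helios+ (left, red) and 5 Helios− libraries (right, blue), with grey lines joining libraries of the same replicate number and bars for mean ± SD. Scd2, Stard4 and Ebp are higher and Srebf2, Mvd, Acss2 and Lss lower in Helios+ cells in 5 of 5 pairs, and the groups do not overlap for Stard4, Srebf2, Acss2 and Lss.

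Of the 6 genes that sense sterols, Stard4 was higher and Srebf2 lower. Srebf2 was the more abundant of the SREBP genes (chromosome 15, 82147181 to 82205379, plus strand). Srebf2 had 934, 1015, 1024, 1039 and 889 normalized counts in Helios+ libraries 1 to 5, against 1115, 1179, 1362, 1413 and 1138 in Helios− libraries 1 to 5. No Helios+ library reached the lowest Helios− library. Its change was −0.34 ± 0.08 (SE; limma adjusted p = 0.00514), a 1.27-fold higher mean in Helios− cells, small beside the other calls but with a narrow error. Srebf1 had 363, 399.8, 475, 510.0 and 439 normalized counts in Helios+ libraries 1 to 5, against 384, 409, 513, 428 and 519 in Helios− libraries 1 to 5. The groups overlapped almost fully, with a change of −0.04 with a 95% interval of −0.27 to 0.19. The log2 ratio of Srebf1 to Srebf2 was −1.17 ± 0.17 in Helios+ and −1.46 ± 0.22 in Helios− libraries (SD, n = 5 each). It was higher in Helios+ in 5 of 5 pairs, but the difference missed the threshold after adjustment (0.29, two-sided exact permutation p = 0.0476, 0.127 adjusted over the 8 ratios). A difference in change between the SREBP genes was thus not shown.

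Scap, the escort of both SREBPs, had 369.9, 355, 364, 321 and 331 normalized counts in Helios+ libraries 1 to 5, against 313, 326, 341, 345 and 317 in Helios− libraries 1 to 5. Its change was 0.08 with a 95% interval of −0.07 to 0.23, and 13.2% of its exon bases are shared with a gene on the other strand. The ratio of Srebf2 to its escort did differ between the populations. On the log2 scale it was 1.49 ± 0.13 in Helios+ and 1.91 ± 0.10 in Helios− libraries (SD, n = 5 each), with no overlap of the groups (−0.42, two-sided exact permutation p = 0.00794, 0.0317 adjusted over the 8 ratios). This exact p is the smallest that 5 against 5 libraries can give. With 9 libraries the call was lost, at an adjusted p of 0.0635, when any 1 of 7 was left out, all but Helios+ libraries 1 and 2 and Helios− library 4.

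The 2 Insig genes, whose proteins retain Scap, were not called. Insig1, itself a target of SREBPs, had 111, 116, 121, 125 and 97.4 normalized counts in Helios+ libraries 1 to 5, against 116, 135, 139.8, 125 and 76.9 in Helios− libraries 1 to 5. Insig2 had 129.9, 115, 125, 120.5 and 112 normalized counts in Helios+ libraries 1 to 5, against 117, 101, 114, 116 and 137 in Helios− libraries 1 to 5. Helios+ library 5 was the lowest of its group for both, and Helios− library 5 the lowest of its group for Insig1 and the highest for Insig2. The changes were −0.03 with a 95% interval of −0.35 to 0.29, and 0.05 with a 95% interval of −0.17 to 0.27. Their log2 ratio was −0.08 ± 0.13 in Helios+ and −0.003 ± 0.49 in Helios− libraries (SD, n = 5 each) and did not pass the test (−0.08, two-sided exact permutation p = 0.778, 0.817 adjusted over the 8 ratios).

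Stard4 binds cholesterol and carries it between membranes, and in other settings it is induced by SREBP2. It had the smallest adjusted p of the 3 higher genes (chromosome 18, 33199355 to 33213862, minus strand). Stard4 had 147, 154, 129.9, 138 and 136 normalized counts in Helios+ libraries 1 to 5, against 79.7, 104, 116, 100.04 and 73.0 in Helios− libraries 1 to 5. The lowest Helios+ library was above the highest Helios− library. The change was 0.59 ± 0.13 (SE; limma adjusted p = 0.00307), a 1.49-fold higher mean in Helios+ cells, and it was kept in each of the 20 alternatives tried. Srebf2 and Stard4 thus moved in opposite directions.

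Fatty acid synthesis begins with acetyl-CoA, which Acss2 makes from acetate and Acly from citrate. Acss2 was lower in Helios+ cells (chromosome 2, 155517948 to 155585724, plus strand). Acss2 had 97.5, 95.3, 116, 76.7 and 149.5 normalized counts in Helios+ libraries 1 to 5, against 168, 150.3, 166, 164 and 214 in Helios− libraries 1 to 5. The groups came close at Helios+ library 5 and Helios− library 2 but did not overlap. The change was −0.71 ± 0.16 (SE; limma adjusted p = 0.00315), and the mean was 1.61-fold higher in Helios− cells. Of the exon bases of Acss2, 9.1% are shared with genes on the other strand. Acly, an abundant gene of the set, had 1005, 1144, 1188, 1013 and 1139 normalized counts in Helios+ libraries 1 to 5, against 952, 1121, 1271, 1093 and 1167 in Helios− libraries 1 to 5. Its change was −0.03 with a 95% interval of −0.20 to 0.14, so a difference as large as that of Acss2 lies outside its interval.

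The 2 enzymes that build the chain were called with the replicate block and not without it. Acaca, acetyl-CoA carboxylase, the committed step, had 270.4, 314, 285, 291 and 313 normalized counts in Helios+ libraries 1 to 5, against 343, 370.5, 299, 377 and 334 in Helios− libraries 1 to 5. It was lower in 5 of 5 pairs, with a change of −0.22 ± 0.08 (SE; limma adjusted p = 0.058), with an adjusted p of 0.016 in the blocked fit. Fasn, fatty acid synthase, had 1004, 1142, 1311, 1187 and 1189 normalized counts in Helios+ libraries 1 to 5, against 836, 876, 1213, 1046 and 1121 in Helios− libraries 1 to 5. It was higher in 5 of 5 pairs, with a change of 0.20 ± 0.10 (SE; limma adjusted p = 0.166) and a blocked adjusted p of 0.0033. Helios− replicate 3 was the library in which Fasn was highest and Acaca lowest of its group. Leaving it out also brought a call for each (limma adjusted p = 0.0427 for Fasn and 0.0166 for Acaca). Among all genes tested, the calls rose from 2655 to 2907 without it. They also rose, to 2844, without Helios− replicate 1, and fell without any other library. In Helios− replicate 3, 18.6% of reads were of the ribosomal RNA gene Rn45s, against 8.5% to 13.8% in the others. The lowest share, 8.5%, was that of Helios− replicate 1. A link between this share and the calls was not tested.

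The largest change of the 37 was that of Scd2 (chromosome 19, 44293674 to 44306864, plus strand), a stearoyl-CoA desaturase that puts a double bond into saturated fatty acids. Scd2 had 449.5, 415, 581, 726 and 743 normalized counts in Helios+ libraries 1 to 5, against 219, 156, 321, 414 and 437 in Helios− libraries 1 to 5. Levels differed widely within each group, and Helios− library 5 lay above the lowest Helios+ library, but within every pair the Helios+ library was higher. The mean was 1.88-fold higher in Helios+ cells, a change of 0.97 ± 0.29 (SE; limma adjusted p = 0.0344). The block narrowed its SE to 0.08 and gave an adjusted p of 2.93e-09. Without the block the call was lost when any 1 of Helios+ libraries 3, 4 and 5 and Helios− libraries 1 and 3 was left out (limma adjusted p up to 0.113).

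Scd1, the other desaturase of this pair measured here, was not called. Scd1 had 437, 421, 398, 487 and 389 normalized counts in Helios+ libraries 1 to 5, against 449, 409.6, 489, 533 and 506 in Helios− libraries 1 to 5. It was lower in 4 of 5 pairs, with a change of −0.16 ± 0.09 (SE; limma adjusted p = 0.199). Scd1 and Scd2 are close copies that lie near each other on chromosome 19, so the assignment of reads that fit both is uncertain. The log2 ratio of Scd1 to Scd2 was −0.41 ± 0.40 in Helios+ and 0.72 ± 0.49 in Helios− libraries (SD, n = 5 each). The groups did not overlap, and the difference passed the test (−1.13, two-sided exact permutation p = 0.00794, 0.0317 adjusted over the 8 ratios). As for the ratio above, it missed the threshold with 9 libraries, at an adjusted p of 0.0635, when any 1 of the same 7 was left out. Scd2 was thus above Scd1 in counts in 4 of the 5 Helios+ libraries and below it in all 5 Helios− libraries. Their exon unions have similar lengths, 4892 and 5464 bases.

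Elongases and the desaturase Fads1 gave no call. Elovl5, which lengthens polyunsaturated fatty acids, had 829, 1004, 917, 763 and 875 normalized counts in Helios+ libraries 1 to 5, against 825, 1070.1, 988, 854 and 881 in Helios− libraries 1 to 5, a change of −0.07 with a 95% interval of −0.26 to 0.11. Elovl6, which lengthens palmitate to stearate, had 137, 127, 122, 155 and 138 normalized counts in Helios+ libraries 1 to 5, against 148, 176, 153, 159 and 157 in Helios− libraries 1 to 5. It was lower in 5 of 5 pairs, with a change of −0.22 ± 0.10 (SE; limma adjusted p = 0.11), and quantile normalization called it (limma adjusted p = 0.0472). Elovl1, which makes very long saturated chains, had 114, 129, 127, 118 and 132 normalized counts in Helios+ libraries 1 to 5, against 92.5, 104, 133, 124 and 97.3 in Helios− libraries 1 to 5. Its change was 0.18 with a 95% interval of −0.07 to 0.43. Against Elovl5 as a common partner, neither Elovl6 nor Elovl1 differed past the threshold (−0.15, two-sided exact permutation p = 0.294, 0.47 adjusted over the 8 ratios, and 0.25, two-sided exact permutation p = 0.0714, 0.143 adjusted over the 8 ratios). Fads1, the delta-5 desaturase of polyunsaturated fats, had 80.7, 75.3, 76.9, 62.2 and 69.5 normalized counts in Helios+ libraries 1 to 5, against 57.4, 64.6, 75.4, 70.1 and 60.3 in Helios− libraries 1 to 5, a change of 0.15 with a 95% interval of −0.12 to 0.42.

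The LXR arm gave no call among 4 genes. None had an unadjusted p under 0.05 in limma, with or without the block, in edgeR or in DESeq2. Nr1h2, the form of LXR found in most tissues, had 355, 391, 345, 347 and 393 normalized counts in Helios+ libraries 1 to 5, against 415, 394, 436, 402 and 369 in Helios− libraries 1 to 5. It was lower in 4 of 5 pairs, with a change of −0.14 ± 0.07 (SE; limma adjusted p = 0.194). Nr1h3, the form known from liver and macrophages, was barely detected. Nr1h3 had 7.34, 10.9, 12.0, 14.6 and 2.32 normalized counts in Helios+ libraries 1 to 5, against 19.9, 9.53, 12.0, 5.99 and 7.79 in Helios− libraries 1 to 5. These values rest on as few as 2 reads in a library, and the interval of −1.21 to 0.65 holds changes of either sign. The log2 ratio of Nr1h3 to Nr1h2 was −5.32 ± 0.95 in Helios+ and −5.17 ± 0.56 in Helios− libraries (SD, n = 5 each), a difference that did not pass the test (−0.14, two-sided exact permutation p = 0.817, 0.817 adjusted over the 8 ratios).

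The exporters Abca1 and Abcg1, both LXR targets, were abundant, and most of their spread went with the replicate number. Abca1, which loads cholesterol onto lipid-poor apolipoproteins, had 502, 439.9, 397, 585 and 823 normalized counts in Helios+ libraries 1 to 5, against 506, 418, 407, 589 and 994 in Helios− libraries 1 to 5. Abcg1, which passes cholesterol to high-density lipoprotein, had 681, 667, 962, 1025 and 1209 normalized counts in Helios+ libraries 1 to 5, against 667, 633, 1056, 993 and 1268 in Helios− libraries 1 to 5. In both populations library 5 was the highest for both genes. Changes between the populations were −0.05 with a 95% interval of −0.64 to 0.53, and −0.01 with a 95% interval of −0.50 to 0.48. With the replicate block the 95% intervals narrowed to −0.18 to 0.07 for Abca1 and −0.12 to 0.10 for Abcg1. Their log2 ratio was −0.74 ± 0.33 in Helios+ and −0.69 ± 0.41 in Helios− libraries (SD, n = 5 each) and did not pass the test (−0.04, two-sided exact permutation p = 0.81, 0.817 adjusted over the 8 ratios).

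The replicate number took up much of the spread of these genes. For a typical gene tested, 68.8% of the variance within groups went with the number, and for the 37 genes the median was 69.6%, where 50% follows from the degrees of freedom alone. For Abcg1 it was 98.8%, for Abca1 98.1%, for Scd2 93.6%, for Sc5d 98.2% and for Cyp51 96.2%. Abca1, Abcg1 and Scd2 were highest at number 5 in both populations, and Abcg1 and Scd2 lowest at number 2. Averaged over both populations, their log2 values at number 5 stood 0.74, 0.48 and 0.49 above the mean of their group. Fdps, Lss and Insig1 were lowest of their group at number 5 in both populations, at −0.49, −0.34 and −0.41, and Sqle was highest at number 4, by 0.51. These genes were picked after their values were seen, and no test was made of the pattern. The labels do not say what a replicate number stands for.

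**Figure D3:**
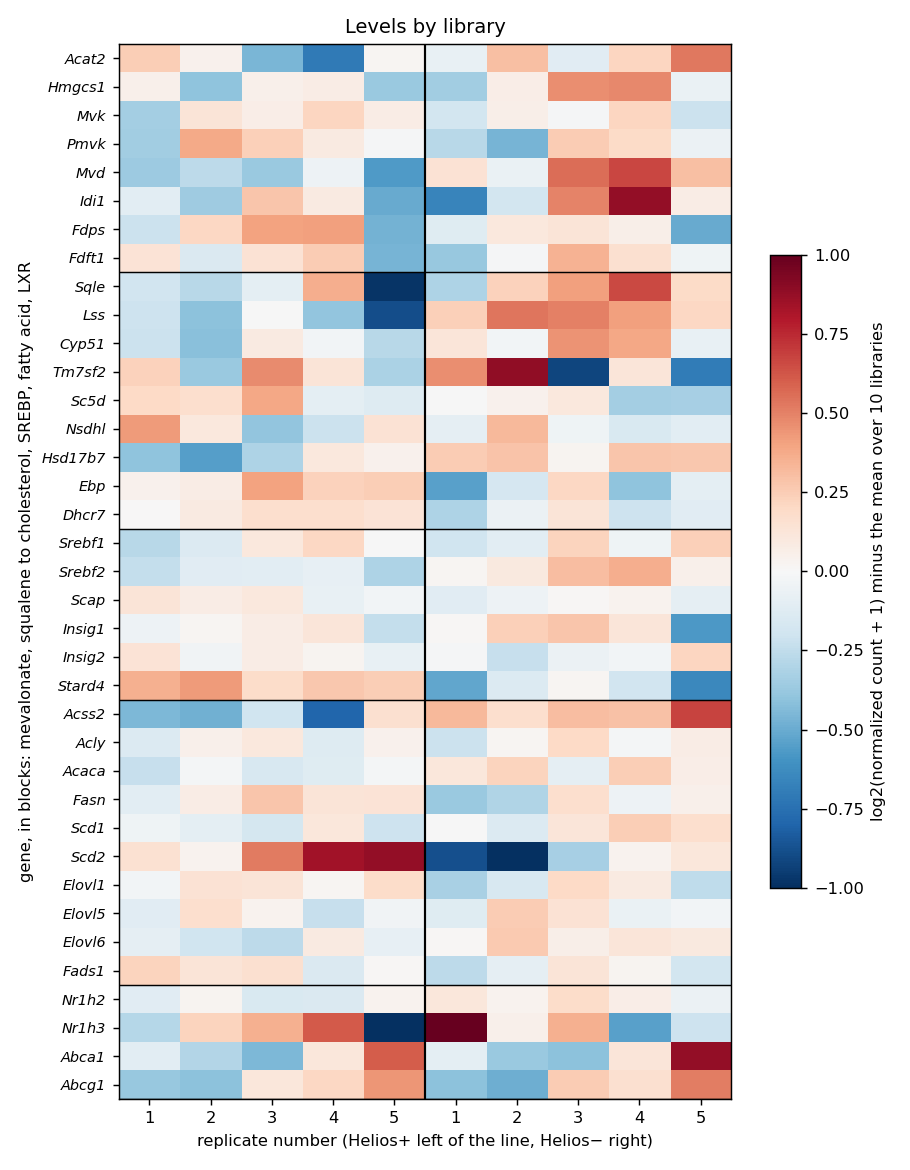
Level of the 37 genes in each library as log2(normalized count + 1) minus the gene's mean over the 10 libraries, with Helios+ replicates 1 to 5 left of the line and Helios− replicates 1 to 5 right of it. Colours end at −1 and 1. Stard4 and Ebp lie higher on the left and Lss, Mvd, Srebf2 and Acss2 on the right, while Abca1 and Abcg1 are highest at number 5 on both sides.

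Per kilobase of exon the most abundant of the 37 genes were Elovl5, Acly and Srebf2, with 256, 210.1 and 155 normalized counts per kilobase as a mean level over the 10 libraries. Abcg1 followed with 126, Nr1h2 with 115 and Fasn with 99.8. The lowest levels were 3.24 for Tm7sf2, 4.07 for Nr1h3, 4.23 for Lss and 4.49 for Hsd17b7. These levels divide by all annotated exon bases, introns kept in some transcripts included, so a gene with long retained introns, as annotated for Lss, comes out low. Of the 9 genes with a mean under 50 the median change was −0.34, where genes of that level had a median of 0.11. For the 16 genes averaging 50 to 200 the median was 0.04, beside 0.005 for genes of like level.

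**Figure D4:**
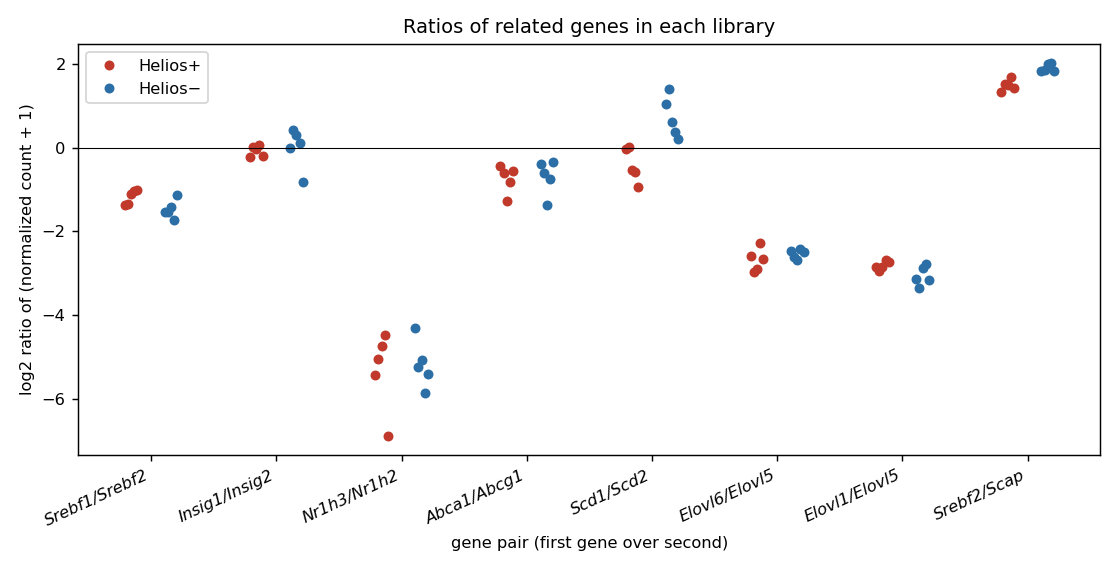
Log2 ratio of normalized count + 1 between related genes, the first named over the second, in the 5 Helios+ (red) and 5 Helios− libraries (blue). The groups do not overlap for Scd1 over Scd2 and for Srebf2 over Scap, and overlap in the other 6 ratios.

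Among neighbouring pathways, genes that take up, move and store cholesterol were called most often, with 13 of 20 tested, 4 higher and 9 lower, beside 24.8% of all genes. Lipa, the lysosomal acid lipase that frees cholesterol from its esters, was lower, at a mean of 327 ± 47.0 among Helios+ and 589.8 ± 117 among Helios− libraries, in normalized counts (SD, n = 5 each), a change of −0.84 ± 0.13 (SE; limma adjusted p = 0.000151). Soat1, which esterifies cholesterol for storage, was higher, at a mean of 532 ± 25.7 among Helios+ and 395 ± 24.6 among Helios− libraries, in normalized counts, by 0.43 ± 0.07 (SE; limma adjusted p = 0.000199). Gramd1b, which carries cholesterol from the plasma membrane to the endoplasmic reticulum, was higher too, at a mean of 752 ± 59.0 among Helios+ and 385 ± 34.2 among Helios− libraries, in normalized counts, by 0.97 ± 0.08 (SE; limma adjusted p = 2.68e-07). The other 2 higher genes were its relative Gramd1c and Osbpl5. Of 18 other enzymes of sterols and isoprenoids, 4 were lower and none higher, where 10.7% and 14.1% of all genes were. The 4 are named next. They were Fntb, a subunit of farnesyltransferase, with −0.78 ± 0.12, Lbr, which also reduces sterols, with −0.39 ± 0.08, Rabggta, a subunit of the Rab prenyltransferase, and Ggps1, which makes geranylgeranyl diphosphate. At an unadjusted p under 0.05, 1 of the 18 was higher in limma, 2 in edgeR and 1 in DESeq2, none of them called. Limma with the block called 2 higher and 7 lower, where 18.9% and 18.5% of all genes were. Of 18 genes that process SREBPs or degrade sterol-regulated proteins, the ubiquitin ligase Rnf139 was higher and the deacetylase Sirt1 lower, or 11.1% called. The call of Rnf139, which shares 26.2% of its exon bases with other genes, was lost when any 1 library but Helios+ library 1 and Helios− libraries 1 and 5 was left out (limma adjusted p up to 0.107).

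Further lists of fatty acid synthesis and oxidation had 3 of 14 and 5 of 20 genes called, beside 24.8% of all genes. Of the 14 genes of synthesis and elongation 2 were higher and 1 lower. Ptplad1 (Hacd3), a dehydratase of the elongation cycle, had a mean of 659 ± 43.6 among Helios+ and 358 ± 20.5 among Helios− libraries, in normalized counts, a change of 0.88 ± 0.07 (SE; limma adjusted p = 1.91e-07). Mid1ip1, an activator of acetyl-CoA carboxylase, was higher by 0.73 ± 0.17, and the change of Acss1, the mitochondrial relative of Acss2, was −0.59 ± 0.08. Of the 20 genes of fatty acid oxidation 5 were higher and 0 lower, led by Decr1, a reductase for unsaturated fatty acids, with a mean of 152 ± 15.0 among Helios+ and 76.1 ± 13.8 among Helios− libraries, in normalized counts, a change of 1.00 ± 0.13 (SE; limma adjusted p = 2.62e-05). No gene of this list was lower at an unadjusted p under 0.05 in limma, edgeR or DESeq2. The others were Hadha, Etfb, of which 58.2% of exon bases are shared with other genes, Acads and Hadh. The call of Acads was lost when any 1 of Helios+ libraries 1, 3 and 4 and Helios− libraries 2 and 4 was left out, and that of Hadh without any 1 of Helios+ libraries 1, 3, 4 and 5 and Helios− libraries 1, 2 and 4 (limma adjusted p up to 0.0709 and 0.104). The count of 5 thus fell to 3 in the lowest case. Of 13 genes of glycerolipid synthesis Lpin2, a phosphatidate phosphatase, and Gpam, an acyltransferase, were higher. Of 8 LXR partners and targets Smpdl3a was higher and Rxrb and Abca7 lower. Of 13 genes of AMPK and mTORC1 the 3 called, Prkaa1, Prkag1 and Mlst8, were lower. Exon bases shared with other genes made up 43.7% for Prkag1, 22.5% for Mlst8 and, in the synthesis list above, 25.5% for Mid1ip1. The calls of Gpam (all libraries but Helios+ 1 and Helios− 1), Rxrb (Helios+ 4 and 5, Helios− 2 and 4), Abca7 (Helios+ 2, 3 and 5, Helios− 4) and Mlst8 (Helios− 4) were also lost when 1 of the libraries given was left out, with limma adjusted p up to 0.108 for Gpam, 0.0721 for Rxrb, 0.0657 for Abca7 and 0.0515 for Mlst8. With the replicate block 4 of the 8 LXR partners and targets were lower, where 18.5% of all genes were in that fit. Of these 3 lists 15.4%, 37.5% and 23.1% were called without the block, beside 24.8% of all genes. Their median changes were 0.10, −0.11 and −0.10, beside −0.02 for all genes.

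**Figure D5:**
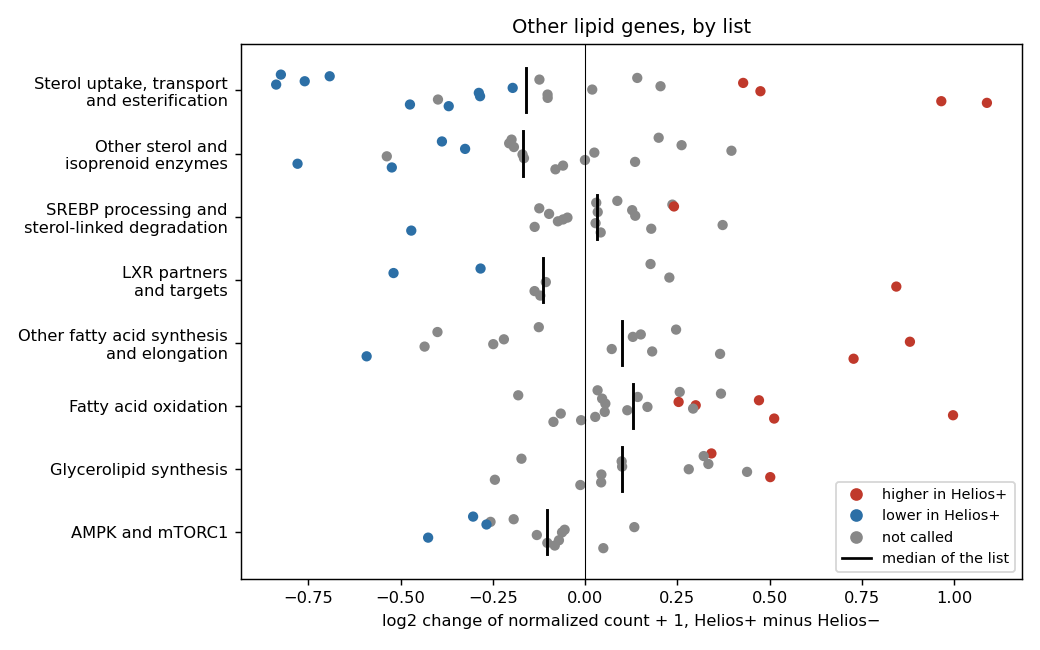
Log2 change of normalized count + 1 in Helios+ minus Helios− cells for the tested genes of 8 neighbouring lists. Each point is a gene, red where called higher, blue where called lower and grey where not called, and the black bar is the median of the list. The list of sterol uptake, transport and esterification has 13 of its 20 points coloured.

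Of 11 tested genes of the cell cycle 7 were higher in Helios+ cells, where 14.1% of all genes tested were higher. Of 8 tested macrophage and monocyte markers 2, Csf1r and Mrc1, were higher, or 25%, where 14.1% of all genes were higher. With the replicate block 3 of the 8 were higher, where 18.9% of all genes were. Cd14 and Fcgr1 stood at 0 in at least 1 library. Of 7 B cell markers 1, Ebf1, was lower, or 14.3%, where 10.7% of all genes were lower. With the replicate block 4 of the 7 were lower, where 18.5% of all genes were. The call of Ebf1 without the block was lost when any 1 of Helios+ libraries 2, 3, 4 and 5 and Helios− libraries 1 and 4 was left out (limma adjusted p up to 0.0834). The part of dividing cells or of these other cells in the changes of Scd2, Stard4, Ebp, Mvd, Lss, Srebf2 and Acss2 was not tested.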

How the data were processed

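Sorted Treg cells were profiled by RNA-seq, 5 Helios+ and 5 Helios− libraries. The deposited table gives a signal per gene and library, gene counts divided by a size factor (normalized counts), made by the authors. The submitters' processing notes name HISAT2 2.0.4, HTSeq, DESeq2 and mm10. The sources used here do not give the strand setting or the treatment of reads with several hits. Whole reads were recovered by dividing each column by its smallest step, and 100% of values came out whole within 0.001 of a read. Recovered depth was 4872348 to 6948692 reads a library, and sampling of reads limits genes with few counts.

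Log2(normalized count + 1) of the 10718 genes with a mean of at least 10 was fitted by group with limma 3.58.1 (trend and robust) in R 4.3.3, with Benjamini-Hochberg adjustment over all of them. limma called 2655 genes. On the recovered reads, edgeR 4.0.16 (quasi-likelihood) called 2637 and DESeq2 1.42.0 called 2846. Ratios of related genes were compared by exact two-sided permutation in Python 3.11.15 with numpy 2.4.6. Groups share replicate numbers 1 to 5, and deviations of same-numbered libraries from their group means correlated across genes at 0.481, 0.194, 0.388, 0.161 and 0.146. The highest correlation of each Helios+ library with a Helios− library of another number was 0.009, −0.0008, 0.117, 0.099 and 0.113. The numbers were taken to pair libraries, although the margin was small at number 5. The labels do not say what the numbers mark. The fit without the block is the one reported first.

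Values are given per library for called genes, for the SREBP, Insig, LXR, exporter, desaturase and elongase genes, and for Acly, Fasn, Acaca, Sc5d, Fdft1 and Hmgcs1. Cyp51 and Sqle were added after their values were seen. In other lists up to 3 called genes of smallest p are described, and further names complete a count. Genes and lists were chosen with earlier results of these data known. Alternatives covered the pseudocount, the filter, the scaling, the test, the block and leaving out each library. The fit without the block was also run on simulated counts. These held no effect of the replicate number, so that run cannot show how the fit handles such an effect. Coordinates and exon lengths are from GENCODE vM21 (GRCm38), promoters from RefSeq (GRCm38.p6).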

Additional observations from a re-analysis of the deposited data

Results flagged for a closer look

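Of 74 sets of 5 libraries, one for each gene and population, 3 held a library far from the other 4. Chance alone would give such a library in about 1 in 20 sets. Mvk had 29.3 normalized counts in Helios+ library 1, low beside 39.3 to 43.7 in the other 4 Helios+ libraries. Nsdhl had 75.1 normalized counts in Helios− library 2, high beside 53.9 to 57.9 in the other 4 Helios− libraries. Hsd17b7 had 22.9 normalized counts in Helios− library 3, low beside 26.9 to 27.5 in the other 4. None of the 3 genes was called with or without that library.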

How the results depend on the processing

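Over all alternatives the 7 called genes gave 138 recomputed values, of which 126 kept direction and call, 12 lost the call (7 for Ebp, 5 for Scd2) and 0 reversed. Of the 30 uncalled genes 6 gained a call under some alternative. The count of higher genes, 3, ranged from 1 to 3 when 1 library was left out, and that of lower genes, 4, from 4 to 5. The count of lower genes was 2 with a minimum mean of 50, where Lss and Mvd lie below the minimum and were not tested, 7 with quantile normalization and 7 with the replicate block. Among all genes the block called 1979 lower, against 1143 without it. It also took the called genes of the 37 from 7 to 11, those between squalene and cholesterol from 2 to 4 (lower from 1 to 3) and those of fatty acid synthesis from 2 to 4 (higher from 1 to 2, lower from 1 to 2), and left the counts of the mevalonate, sterol-sensing and LXR genes as they were. Tested over the 5 pairs, which cannot reach the threshold after adjustment, the ratio differences stayed at −1.13 for Scd1 over Scd2 and −0.42 for Srebf2 over Scap (exact permutation, adjusted p = 0.125 for both). With 1 library left out they ranged from −1.26 to −0.97 and from −0.47 to −0.38, and that of Elovl1 over Elovl5 from 0.18 to 0.33, called only without Helios− replicate 4. Quantile normalization brought the share of higher calls among all genes to 50.3% and the block to 50.5%, beside 56.9%. The causes were not tested. Depth limits Tm7sf2, Nr1h3, Hsd17b7 and Acat2 most.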
